A study of Mus musculus with 22 samples.

Results

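The 6 mammary samples with the highest macrophage score were compared with the 6 samples with the lowest, out of 22 mice. The score of a mouse was the mean log2(CPM + 1) of 8 genes that mark macrophages, where CPM is the signal of a gene in counts scaled to the same total in every library. The ranking genes were Adgre1, Cd68, Csf1r, Mrc1, Cd163, Lyve1, Fcgr1 and Mertk, and they were left out of every test. The members were thus chosen by the measured levels of these genes, and the groups are called macrophage-rich and macrophage-poor, and 10 mice lay between them. Because the groups were formed from measured values rather than from a treatment, each comparison between them describes what else differed between the same libraries.

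The mice were female C57BL/6J, 7 to 8 weeks old, and each had received 100000 cells of the mouse mammary cancer line EO771, made to express firefly luciferase, in the left 4th mammary fat pad. Wheel mice had a running wheel for 2 weeks before engraftment and until collection, and control mice had only its hub. Liposomes with PBS, or with clodronate, a drug that kills phagocytes that swallow it, were injected 24 hours before engraftment and again at engraftment. The whole tissue was collected 24 hours after engraftment, with 6 control and 6 wheel mice given PBS liposomes and 5 control and 5 wheel mice given clodronate liposomes.

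Macrophages are phagocytes that take up dead cells, debris and microbes and digest them in lysosomes. In the mammary fat pad, long-lived resident cells sit along vessels, ducts and fat cells, and blood monocytes enter after injury and turn into further macrophages. In RNA from whole tissue, fewer cells of a type and less RNA per cell cannot be told apart, so that rich and poor refer to the RNA of these genes.

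The macrophage-rich libraries held 13701891 to 18771385 reads and the macrophage-poor libraries 13644835 to 20484578. The files raise every value below 1 CPM to 1, a floor at which 73.95% to 75.01% of genes sat in the rich mice and 74.3% to 76.0% in the poor mice. Of the reads in genes above the floor, the 10 most abundant genes took a median of 25.4% in the rich and 29.1% in the poor mice. Genes of B cells were high in 5 mice (B cell list over 3 on the log2 scale, as in lymph node tissue), of which 1, clodronate wheel 5, was macrophage-rich and 4 lay in the middle.

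The macrophage-rich mice, from the highest score down, were PBS control 6, PBS control 3, PBS wheel 4, PBS wheel 6, PBS control 1 and clodronate wheel 5. Their scores ran from 5.00 for PBS control 6 to 4.44 for clodronate wheel 5. The macrophage-poor mice were clodronate wheel 2, clodronate control 1, clodronate control 2, PBS control 5, PBS wheel 5 and clodronate wheel 1, with scores from 3.62 down to 3.21. Just outside the rich group lay clodronate wheel 3 at 4.41, and just outside the poor group lay clodronate control 4 at 3.91.

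**Figure D1:**
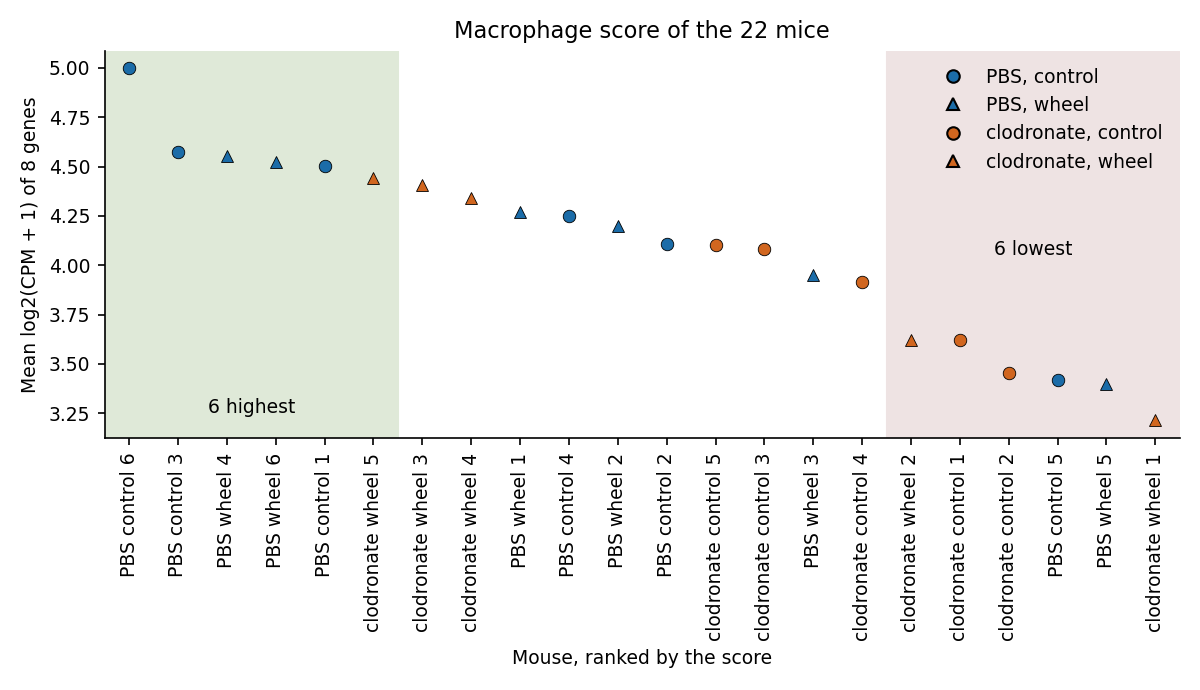
Macrophage score (mean log2(CPM + 1) of 8 genes) of each of the 22 mice, ranked along the x axis, with colour for the liposome and shape for the activity. The 6 highest mice (left shading) and the 6 lowest (right shading) each hold mice with a wheel and without, and both liposomes; there is no break in the scores at the upper edge.

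The end groups held equal numbers of control and wheel mice, and their uneven split by liposome did not pass the test. Of the macrophage-rich mice, 5 had received PBS and 1 clodronate liposomes, against 2 and 4 of the macrophage-poor mice (Fisher's exact test, two-sided, p = 0.242). The smallest p of this test for groups of 6, 0.00216, needs equal numbers of each liposome. The end groups did not hold equal numbers, so the smallest p they allowed was higher. Each end group held 3 control and 3 wheel mice (Fisher's exact test, p = 1).

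Across all 22 mice, no difference in the score between labelled groups passed the test. Without a wheel, the score was 4.31 ± 0.53 (SD, n = 6) with PBS and 3.84 ± 0.29 (SD, n = 5) with clodronate liposomes, a difference of 0.47 (exact two-sided permutation test, p = 0.126, 0.502 adjusted over 4 comparisons). Leaving out PBS control 5, the only mouse of its group among the lowest, raised the difference to 0.65 (exact permutation test, unadjusted p = 0.00794), and leaving out PBS control 6 lowered it to 0.33 (exact permutation test, p = 0.230). With a wheel, the score was 4.15 ± 0.43 (SD, n = 6) with PBS and 4.01 ± 0.56 (SD, n = 5) with clodronate liposomes (exact permutation test, p = 0.641, also after adjustment). The wheel mice exceeded the control mice by -0.16 with PBS (exact permutation test, p = 0.591) and by 0.17 with clodronate (exact permutation test, p = 0.540), both 0.641 after adjustment.

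The 8 ranking genes did not contribute alike, and their values are given as a description, since they chose the groups. Cd68, a glycoprotein of macrophage lysosomes, ran from 10.8 to 36.3 CPM (median 20.9) in the rich mice and from 3.23 to 6.85 CPM (median 4.62) in the poor mice. Lyve1, a hyaluronan receptor of resident macrophages and also of lymphatic endothelium, ran from 17.2 to 51.0 CPM (median 36.8) against 6.51 to 16.3 CPM (median 10.4). These were the only ranking genes whose groups did not overlap.

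Mrc1, the mannose receptor, had medians of 55.4 CPM in the rich and 21.0 CPM in the poor mice, and Csf1r, the receptor for the growth factor that keeps macrophages alive, had 50.2 and 29.4 CPM. Adgre1, which encodes F4/80, had medians of 11.5 and 5.05 CPM, and Cd163, a scavenger receptor for haemoglobin, 26.9 and 15.6 CPM. Fcgr1, the high-affinity IgG receptor, had medians of 5.20 and 1.01 CPM and was at the floor in 3 of 6 poor mice. Mertk, a receptor for dying cells, hardly followed the others: its medians were 31.4 and 25.8 CPM, its log2 difference was 0.18, and its correlation with the mean of the other ranking genes over the 22 mice was 0.083 (a description, without a test).

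The rich mice also differed in which ranking genes were high. Fcgr1 was highest in PBS wheel 4 and PBS control 6 and near the floor in PBS control 3, PBS wheel 6 and clodronate wheel 5. Cd163 was lowest among the rich mice in PBS wheel 4, at 9.10 CPM, and highest in PBS wheel 6, at 40.2 CPM.

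**Figure D2:**
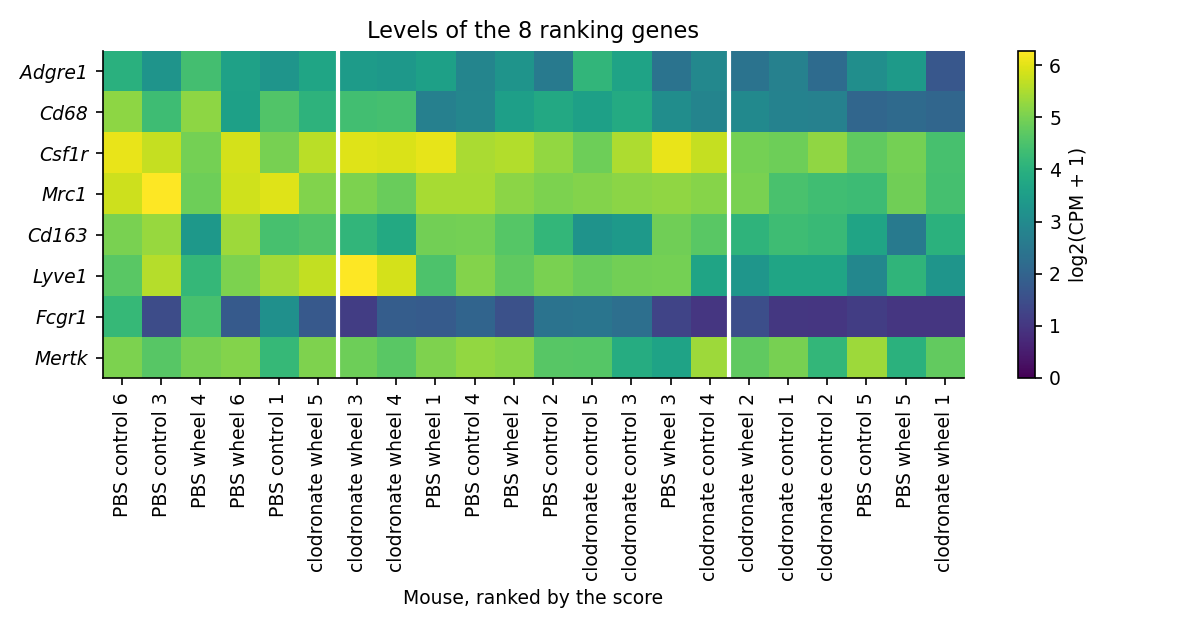
Levels of the 8 ranking genes (rows) in the 22 mice (columns, ranked by score) as log2(CPM + 1), with white lines at the edges of the end groups. Cd68 and Lyve1 separate the groups, Mertk is spread evenly over the mice, and Fcgr1 is high in only some of the rich mice.

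Outside the ranking genes, 15130 genes were above the floor in at least 5 mice and were tested. Immune receptors and signalling genes of myeloid cells and the C1q chains of complement were among the genes that were higher in the rich mice, and epithelial genes were among the few that were lower. With limma and Benjamini-Hochberg adjustment over all genes, 16 genes passed an adjusted p of 0.05, which is 0.106% of those tested: 13 were higher in the rich mice (0.0859%) and 3 were lower (0.0198%). At an unadjusted p of 0.05, 1756 genes were higher (11.6%) and 595 lower (3.93%), and 64% of all genes had a higher mean in the rich mice. That tilt depended on the scaling: after upper-quartile scaling the counts were 1012 higher and 952 lower, and the median difference over all genes fell from 0.12 to 0.02 on the log2 scale.

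The calls were fragile. With the liposome and the activity as covariates 0 genes passed in limma (2120 at an unadjusted p of 0.05), and without clodronate wheel 5, the rich mouse with high B cell genes, 0 passed (2254 at an unadjusted p of 0.05), with adjusted p from 0.0653 to 0.0971 for the 16 genes. The number also fell to 0 without PBS control 6, PBS wheel 4, clodronate wheel 2, clodronate control 2, PBS control 5, PBS wheel 5 or clodronate wheel 1, to 3 without PBS control 1, and rose to 42 without PBS wheel 6 and to 29 without clodronate control 1. The direction of the 16 genes did not turn in any of these fits.

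The receptors and signalling adaptors that mark myeloid cells gave the largest differences among the genes called. Clec4a3 (chr6:122952515-122969875, plus strand, GRCm38), a C-type lectin receptor of myeloid cells, ran from 7.88 to 27.1 CPM (median 14.7) in the rich mice and from 1 to 4.93 CPM (median 2.78) in the poor mice. The groups did not overlap, and the difference on the log2(CPM + 1) scale was 2.24 ± 0.39 (SE, limma adjusted p = 0.0465). Fcgr3 (chr1:171051174-171064935, minus strand), a low-affinity IgG receptor, ran from 11.5 to 21.4 CPM (median 17.4) in the rich mice and from 1.66 to 9.42 CPM (median 4.16) in the poor mice. Its difference was 1.81 ± 0.32 (SE, limma adjusted p = 0.0465), and the highest poor mouse, clodronate control 1, lay just under the lowest rich mouse, clodronate wheel 5.

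Tyrobp (chr7:30413760-30417585, plus strand), the adaptor DAP12 through which several such receptors signal, ran from 14.96 to 36.1 CPM (median 24.9) in the rich mice and from 5.79 to 11.2 CPM (median 7.76) in the poor mice, a log2 difference of 1.51 ± 0.24 (SE, limma adjusted p = 0.0465). Apbb1ip (chr2:22774094-22875653, plus strand), an adaptor that links the GTPase Rap1 to integrins in blood cells, ran from 31.6 to 62.1 CPM (median 45.4) against 6.59 to 16.2 CPM (median 13.2). At 1.83 ± 0.24 (SE) it had the lowest limma adjusted p of all genes, 0.0303, and every rich mouse was well above every poor mouse.

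Fgr and Aoah were at or near the floor in the poor mice. Fgr, a Src-family kinase of myeloid cells, ran from 2.92 to 7.80 CPM in the rich mice and was at the floor of 1 in 4 of 6 poor mice, and Aoah, an enzyme that inactivates bacterial endotoxin, ran from 2.07 to 4.45 CPM and was at the floor in 6 of 6. Their log2 differences, 1.35 ± 0.23 and 0.97 ± 0.17 (SE, limma adjusted p = 0.0465 for each), are measured from that floor, below which lower levels are not seen.

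The C1q chains, which start the classical complement pathway and are made largely by macrophages, lie side by side on chromosome 4. C1qa (chr4:136895917-136898803, minus strand) ran from 65.8 to 99.2 CPM (median 88.8) in the rich mice and from 39.1 to 56.3 CPM (median 51.2) in the poor mice, and C1qb (chr4:136880129-136886187, minus strand) from 55.9 to 100.2 CPM (median 71.2) against 31.7 to 53.1 CPM (median 34.7). Both were higher in every rich mouse than in any poor mouse, by 0.79 ± 0.13 and 0.94 ± 0.16 on the log2 scale (SE, limma adjusted p = 0.0465 for each). The neighbouring C1qc had values from 35.5 to 67.1 against 18.7 to 28.4 CPM and missed the threshold (log2 difference 1.00, limma adjusted p = 0.0521).

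The other genes called higher are not specific to macrophages. Fam49b and Msn act on the actin skeleton, Msn (moesin) by tying it to the membrane. Fam49b had medians of 54.0 and 24.9 CPM (log2 difference 1.19 ± 0.20, SE), and Msn 201 and 102 CPM (1.00 ± 0.15, SE). Ran, the GTPase of nuclear transport, had medians of 59.0 and 27.7 CPM (1.08 ± 0.18, SE). Gemin6, a subunit of the complex that assembles splicing particles, had 4.65 CPM and the floor of 1 (1.34 ± 0.21, SE), and Brip1, a DNA helicase that works with BRCA1, 4.52 CPM and the floor of 1 (1.45 ± 0.21, SE). All 5 had a limma adjusted p of 0.0465 and groups that did not overlap.

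The 3 genes called lower are expressed in epithelium. Cdh1 (chr8:106603351-106670246, plus strand), the E-cadherin that joins epithelial cells, ran from 69.9 to 105 CPM (median 74.7) in the rich mice and from 117 to 232 CPM (median 161) in the poor mice, a log2 difference of -0.96 ± 0.17 (SE, limma adjusted p = 0.0465). Gata3 (chr2:9857078-9890034, minus strand), a transcription factor of luminal mammary cells and also of skin and T cells, ran from 75.4 to 141 CPM (median 97.3) against 163 to 229 CPM (median 176), a difference of -0.89 ± 0.15 (SE, limma adjusted p = 0.0465). Fxyd3 (chr7:31068172-31076704, minus strand), a regulator of the sodium pump, ran from 51.1 to 90.5 CPM (median 63.6) against 110 to 225 CPM (median 133), a difference of -1.07 ± 0.19 (SE, limma adjusted p = 0.0465). For each of the 3 the highest rich mouse, PBS wheel 6, stayed below the lowest poor mouse. These calls kept an adjusted p of 0.0335 after upper-quartile scaling, whereas of the 13 higher genes only Apbb1ip, Tyrobp and Brip1 passed there.

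**Figure D3:**
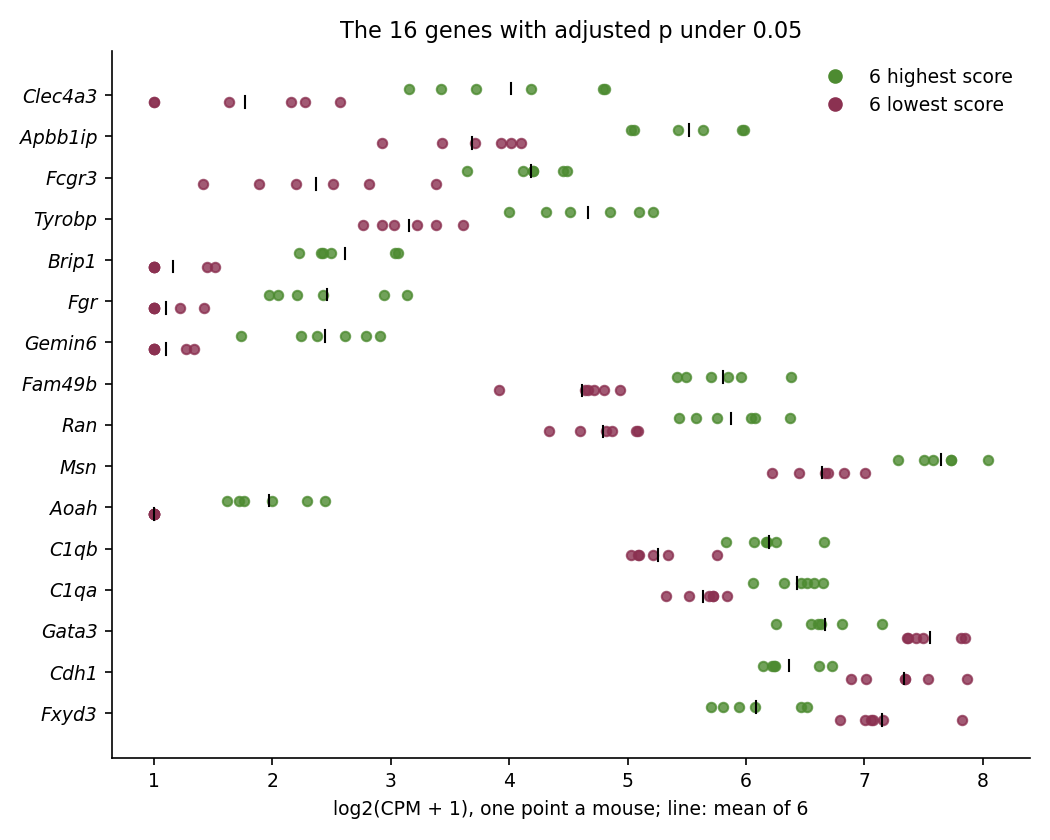
Levels of the 16 genes with an adjusted p under 0.05 as log2(CPM + 1), one point a mouse, with a line at the mean of each group of 6. In every row the green points (6 highest scores) and the purple points (6 lowest) do not overlap; for Aoah all poor mice sit at the floor.

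Groups that did not overlap were more frequent than adjusted calls: 144 genes (0.952%) were higher in every rich mouse than in any poor mouse, and 24 (0.159%) were lower. In the 10 middle mice, which formed neither group, a slope of each gene on the score was fitted. Of the 13 genes called higher, 10 had a positive slope there. The exceptions were Clec4a3, the gene with the largest difference among those called (slope -0.76), Aoah (-0.49) and Ran (-0.05). Of the 3 genes called lower, 2 had a negative slope, and that of Gata3 was 0.38. Of the 144 genes, 100 had a positive slope, beside 54% of all genes with a slope above 0. Of the 24 genes lower without overlap, 11 had a negative slope. Without the 4 middle mice that had high B cell genes, 9 of 13 and 87 of 144 had a positive slope, beside 51.4% of all genes. For the lower genes, 1 of 3 and 12 of 24 had a negative slope there. No gene passed an adjusted p of 0.05 in the middle mice with limma (668 at an unadjusted p of 0.05).

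With a mean fitted for each of the 4 labelled groups, the slope of each gene on the score over all 22 mice was called for 22 genes, all rising (0.145% of genes tested). Of these, 9 were among the 16: Clec4a3, Brip1 and C1qb (limma adjusted p = 0.00239 each), and Apbb1ip, Fcgr3, Gemin6, Fam49b, Ran and C1qa (limma adjusted p from 0.041 to 0.0422). The end mice weigh most in this fit too, so it is no separate evidence. Without the 5 mice with high B cell genes, 0 genes passed (1489 at an unadjusted p of 0.05 in limma). No difference in slope between liposomes was called (limma, 0 genes at an adjusted p of 0.05 and 1685 at an unadjusted p of 0.05).

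The promoters of 3 of the genes called higher are shown because the transcription factor PU.1, encoded by Spi1 and required for macrophages to form, binds sites with the core GAGGAA. Each is the 250 bases before the start that the RefSeq table gives for the gene (GRCm38.p6), read on the gene's strand, with GAGGAA or its reverse complement TTCCTC in capitals. C1qb is at chr4:136886201-136886450 (minus strand), Fcgr3 at chr1:171059404-171059653 (minus strand) and Clec4a3 at chr6:122952265-122952514 (plus strand). The RefSeq start of Fcgr3 lies inside the gene as bounded above, so its stretch is within that gene and not before its outermost start.
C1qb: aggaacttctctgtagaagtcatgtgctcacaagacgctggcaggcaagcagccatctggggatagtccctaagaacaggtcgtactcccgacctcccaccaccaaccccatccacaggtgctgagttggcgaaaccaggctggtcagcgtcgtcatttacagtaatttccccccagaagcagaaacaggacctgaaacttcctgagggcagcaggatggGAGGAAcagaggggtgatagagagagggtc
Fcgr3: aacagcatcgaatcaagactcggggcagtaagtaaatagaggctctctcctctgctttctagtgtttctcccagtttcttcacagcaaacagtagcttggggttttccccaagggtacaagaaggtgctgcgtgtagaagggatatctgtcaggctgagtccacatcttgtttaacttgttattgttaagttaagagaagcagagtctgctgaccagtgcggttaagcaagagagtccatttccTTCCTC
Clec4a3: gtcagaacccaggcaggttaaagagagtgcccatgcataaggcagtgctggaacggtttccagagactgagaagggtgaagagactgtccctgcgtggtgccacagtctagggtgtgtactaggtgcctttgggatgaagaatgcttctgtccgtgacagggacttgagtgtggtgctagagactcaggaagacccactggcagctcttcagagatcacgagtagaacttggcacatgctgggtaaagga
The C1qb and Fcgr3 promoters held 1 match each and the Clec4a3 promoter none. These letters occurred on either strand in 23.1% of 27025 promoters of this length and in 22.9% of those of the genes tested. Of the 10 genes called higher that had an entry, 4 held them, and of 23 such genes of the macrophage and monocyte list below, 11 (47.8%). A match is a description of the sequence and does not show binding.

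A list of 30 general macrophage and monocyte genes followed the ranking. On the log2(CPM + 1) scale 29 of the 30 had a higher mean in the rich mice by both scalings, 26 at an unadjusted p of 0.05 without upper-quartile scaling, with a median log2 difference of 1.33 beside 0.12 over all genes tested. Only Fcgr3 and Tyrobp were called, and the groups of 9 genes did not overlap. Of all genes tested, 64% had a higher mean and 11.6% were higher at an unadjusted p of 0.05 in limma. For 0.952% the rich mice were higher without overlap. The list marks the same cells as the ranking genes, so its rise is no separate evidence. The summed level of the list, the mean log2(CPM + 1) per mouse, ran from 3.89 to 4.94 in the rich and from 3.15 to 3.36 in the poor mice. The middle mice, from 3.45 to 4.93, spanned the gap.

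Lyz2, the lysozyme of phagocytes, ran from 101 to 325 CPM (median 134) in the rich mice and from 51.7 to 76.3 CPM (median 64.5) in the poor mice, a log2 difference of 1.20 (limma adjusted p = 0.0827). Fcer1g, the partner chain of Fc receptors, ran from 31.9 to 71.4 CPM (median 45.1) against 7.04 to 30.5 CPM (median 19.5), a difference of 1.40 (limma adjusted p = 0.0904). Ms4a6c, a membrane protein of monocytes, had medians of 30.4 and 7.63 CPM (limma adjusted p = 0.0785), and Laptm5, a lysosomal protein of white blood cells, 56.1 and 24.0 CPM (limma adjusted p = 0.0521). None of these 4 genes overlapped between the groups, and each missed the threshold.

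Other members of the list showed no such separation. Cd14, the endotoxin co-receptor, had medians of 11.8 and 10.5 CPM and a log2 difference of 0.00, which was -0.11 after upper-quartile scaling. Maf, a transcription factor of resident macrophages, had 266 and 238 CPM (log2 difference 0.26, limma adjusted p = 0.528).

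Genes of monocytes were uneven among the rich mice. Ly6c2, which marks inflammatory monocytes, was 59.8 CPM in PBS control 6, 66.9 in PBS wheel 4, 48.6 in clodronate wheel 5 and 11.4 in PBS control 1, but only 3.01 in PBS wheel 6 and 1.31 in PBS control 3, against 1 to 2.94 CPM in the poor mice. Its log2 difference, 2.72 ± 0.77 (SE), did not pass (limma adjusted p = 0.158). Ccl2, the chemokine that draws monocytes, was 24.2, 54.6, 18.2 and 24.0 CPM in the same 4 mice and 1 and 1.44 CPM in PBS wheel 6 and PBS control 3, against 1 to 6.96 CPM in the poor mice. PBS control 3 was within the poor range for both genes, and PBS wheel 6 was within it for Ccl2 and just above it for Ly6c2. Ccr2, the receptor for Ccl2, ran from 15.7 to 81.1 CPM against 9.10 to 17.2 CPM (log2 difference 1.47, limma adjusted p = 0.101). Rhox5, a gene of germ cells and many tumours given below, split the rich mice alike. It was 15.2 to 68.8 CPM in the 4 mice higher in Ly6c2 and Ccl2 and 1 in PBS wheel 6 and PBS control 3. The part of engrafted cells in this split was not tested.

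Genes of resident macrophages along vessels differed less than the general list. Neither list holds a ranking gene, so Lyve1 (log2 difference 1.60), which helped to choose the groups, is not counted here. Of 19 tested, 17 had a higher mean in the rich mice, beside 64% of all genes. At an unadjusted p of 0.05 in limma 6 were higher and 0 lower, beside 11.6% and 3.93% of all genes. The median log2 difference was 0.56, in a range from -0.33 to 1.49. No member was called and none was free of overlap. Folr2, a folate receptor of these cells, ran from 9.56 to 23.8 CPM (median 13.2) in the rich mice and from 5.53 to 10.95 CPM (median 8.16) in the poor mice (log2 difference 0.75, limma adjusted p = 0.215), and was highest in PBS control 3. Cbr2, a reductase found in the same cells, had 39.6 and 47.0 CPM (log2 difference -0.31, limma adjusted p = 0.448). Apoe, a carrier of lipids also made by other cells, had medians of 1591 and 1734 CPM (-0.33, the lowest of the list, limma adjusted p = 0.459).

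Genes of alternative activation, the state driven by type 2 cytokines, had a median log2 difference of 0.20 over 11 tested, and none was called. Retnla, a secreted marker of that state, ran from 45.1 to 506 CPM in the rich mice and from 71.0 to 256 CPM in the poor mice (limma adjusted p = 0.863). Arg1, which breaks down arginine, was lower on average in the rich mice, with medians of 5.43 and 14.2 CPM, but the groups overlapped (log2 difference -0.83, limma adjusted p = 0.279).

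The ligands of the macrophage growth factor receptor differed in direction. Csf1 ran from 19.1 to 40.4 CPM (median 24.6) in the rich mice and from 8.30 to 18.9 CPM (median 14.6) in the poor mice, without overlap (log2 difference 0.92 ± 0.25, SE, limma adjusted p = 0.141). Il34, the other ligand of Csf1r, made in skin and epithelium, ran from 11.3 to 25.8 CPM (median 17.9) against 18.8 to 49.5 CPM (median 25.6), a difference of -0.61 ± 0.24 (SE, limma adjusted p = 0.256). Neither passed the test. Tgfb1, a cytokine that shapes resident macrophages, ran from 4.71 to 6.53 CPM against 1.98 to 4.18 CPM, again without overlap (log2 difference 0.66, limma adjusted p = 0.202).

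Of 16 complement genes tested, 13 had a higher mean in the rich mice, beside 64% of all genes (9688 of 15130, and 7949 after upper-quartile scaling), and besides C1qa and C1qb none was called. C3ar1, the receptor for a fragment of C3, ran from 10.9 to 67.5 CPM (median 22.6) in the rich mice and from 3.24 to 9.97 CPM (median 6.16) in the poor mice (log2 difference 1.84, limma adjusted p = 0.103). It was one of 4 complement genes whose groups did not overlap, with the 3 C1q chains, beside 0.952% of all genes.

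Among lysosomal genes, 22 of 23 tested had a higher mean in the rich mice, beside 64% of all genes. Their median log2 difference was 0.45, and none was called. Ctss, a cysteine protease that prepares antigen, ran from 41.2 to 242 CPM against 22.1 to 43.6 CPM (medians 131 and 38.9, limma adjusted p = 0.136). Ctsd, an aspartic protease of most cells, had medians of 620 and 493 CPM (0.23, limma adjusted p = 0.502).

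Of 14 chemokine genes tested, 12 had a higher mean in the rich mice (median log2 difference 0.80) and none was called. Ccl6 ran from 79.8 to 174 CPM (median 125) in the rich mice and from 24.3 to 70.2 CPM (median 60.2) in the poor mice (limma adjusted p = 0.096), and Cxcl10, which responds to interferon, from 2.27 to 18.1 CPM against 1 to 1.90 CPM (limma adjusted p = 0.0977). These were the 2 chemokines without overlap, beside 0.952% of all genes, and Cxcl10 was at the floor in 5 of 6 poor mice. Of all genes, 64% had a higher mean in the rich mice. All 18 interferon-stimulated genes had a higher mean in the rich mice (median log2 difference 0.70), yet none was called, and their summed level overlapped, from 2.85 to 5.32 in the rich and from 2.69 to 3.84 in the poor mice.

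The difference in MHC class II genes, which present antigen, rested largely on clodronate wheel 5. All 10 genes tested had a higher mean in the rich mice, beside 64% of all genes. Their median log2 difference was 0.65, and 0.19 without that mouse. H2-Aa, a chain of the class II molecule, was 651 CPM in that mouse and 88.9 to 242 CPM in the other rich mice, against 103 to 147 CPM in the poor mice (limma adjusted p = 0.375). Genes that handle iron and haem had a median log2 difference of 0.29 over 13 tested with none called. Of these, 12 had a higher mean in the rich mice, beside 64% of all genes. At an unadjusted p of 0.05 in limma, 4 were higher, beside 11.6% of all genes, and 0 lower. Slc11a1, the metal transporter of phagosomes, had medians of 8.21 and 3.28 CPM (1.19, the highest of the list, limma adjusted p = 0.141). Slc40a1, the iron exporter, was the only member with a lower mean, with medians of 3.72 and 8.73 CPM (-0.55, limma adjusted p = 0.439).

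**Figure D4:**
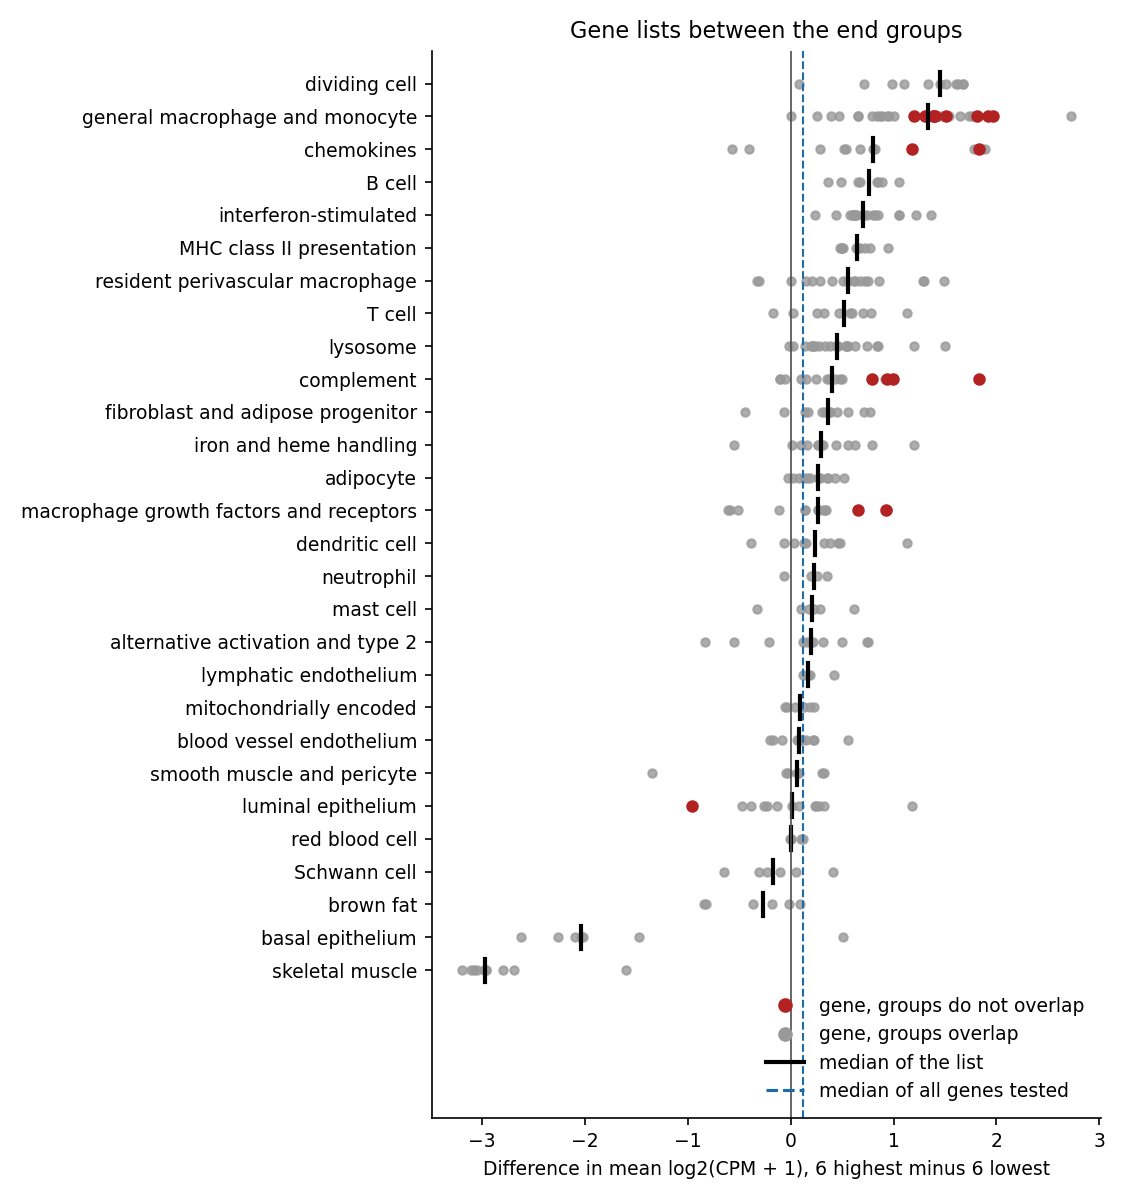
Difference in mean log2(CPM + 1) between the 6 highest and the 6 lowest mice for each gene (points) of 28 lists, with the list's median (black bar) and the median of all genes tested (dashed). Red points, genes whose groups do not overlap, lie among the macrophage, complement, chemokine, growth factor and luminal lists; the medians of skeletal muscle and basal epithelium lie lowest, at -2.97 and -2.04.

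Genes of skeletal muscle had a lower median in the rich mice, with overlapping groups and no called gene. The 10 genes of skeletal muscle, which lies next to the gland, had a median log2 difference of -2.97, and their summed level ran from 1.71 to 8.02 (median 1.87) in the rich and from 2.08 to 10.97 (median 5.68) in the poor mice. Ckm, the creatine kinase of muscle, was 297 and 127 CPM in PBS control 3 and PBS control 6 and 1.38 to 2.56 CPM in the other rich mice, against 2.29 to 3264 CPM in the poor mice (limma adjusted p = 0.367). Of the list, 1 gene of 10 was lower at an unadjusted p of 0.05 in limma, beside 3.93% of all genes.

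The 7 genes of basal epithelium, also found in skin, had a median log2 difference of -2.04. Their summed level ran from 3.87 to 7.18 in the rich and from 4.25 to 8.01 in the poor mice. At an unadjusted p of 0.05 in limma 5 of the 7 were lower, beside 3.93% of all genes, and none was called. The mean of 1 gene was higher, by 0.51. Krt14, a keratin of basal cells, was 555 CPM in PBS control 3 and 28.9 to 57.7 CPM in the other rich mice, against 44.9 to 1222 CPM in the poor mice (limma adjusted p = 0.256). The 8 genes of skin epidermis, a list added after the values were seen, had a median of -2.91, with summed levels from 1.86 to 7.98 and from 1.80 to 9.97. Clodronate control 1 and PBS control 5 were poor mice with little of this signal. With the muscle list as a covariate 2 genes were called, and the part of skin and basal cells in the results for macrophage genes and for Cdh1, Gata3 and Fxyd3 was not tested.

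The list of luminal epithelium had a median of 0.01 over 13 genes (-0.10 after upper-quartile scaling), and Cdh1 was its only called gene. Epcam, an adhesion molecule of these cells, ran from 40.5 to 62.6 CPM against 51.1 to 111 CPM (log2 difference -0.48, limma adjusted p = 0.252), and Krt8, a luminal keratin, from 8.38 to 51.8 CPM against 15.4 to 39.2 CPM (0.32, limma adjusted p = 0.694).

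Genes of dividing cells were higher on average in the rich mice. All 11 had a higher mean, beside 64% of all genes, and 7 were higher at an unadjusted p of 0.05 in limma, beside 11.6%. The median log2 difference was 1.45, and none was called. Top2a, which untangles DNA in dividing cells, was 107 to 131 CPM in PBS control 6, PBS wheel 4 and PBS control 1 and 12.1 CPM in PBS wheel 6, against 3.69 to 52.4 CPM in the poor mice (limma adjusted p = 0.284). Rhox5, a homeobox gene of germ cells and many tumours, was 45.0 to 68.8 CPM in the same 3 mice, 15.2 CPM in clodronate wheel 5 and 1 in PBS control 3 and PBS wheel 6, against 1 to 5.79 CPM in the poor mice (limma adjusted p = 0.291). Fcgr1, a ranking gene, was also highest in PBS wheel 4, PBS control 6 and PBS control 1, which is a description only. Clodronate wheel 5, which also had high B cell genes, had Top2a at 61.4 CPM with Fcgr1 at 2.34 CPM. The middle mouse with the highest level of the dividing cell list, PBS control 4 at 4.40, had Fcgr1 at 3.04 CPM. These values of single mice are a description too, and a relation of Fcgr1 to dividing or engrafted cells was not tested. The part of dividing or engrafted cells was not tested beyond the fit with the list as a covariate, in which 0 genes were called (1943 at an unadjusted p of 0.05 in limma).

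**Figure D5:**
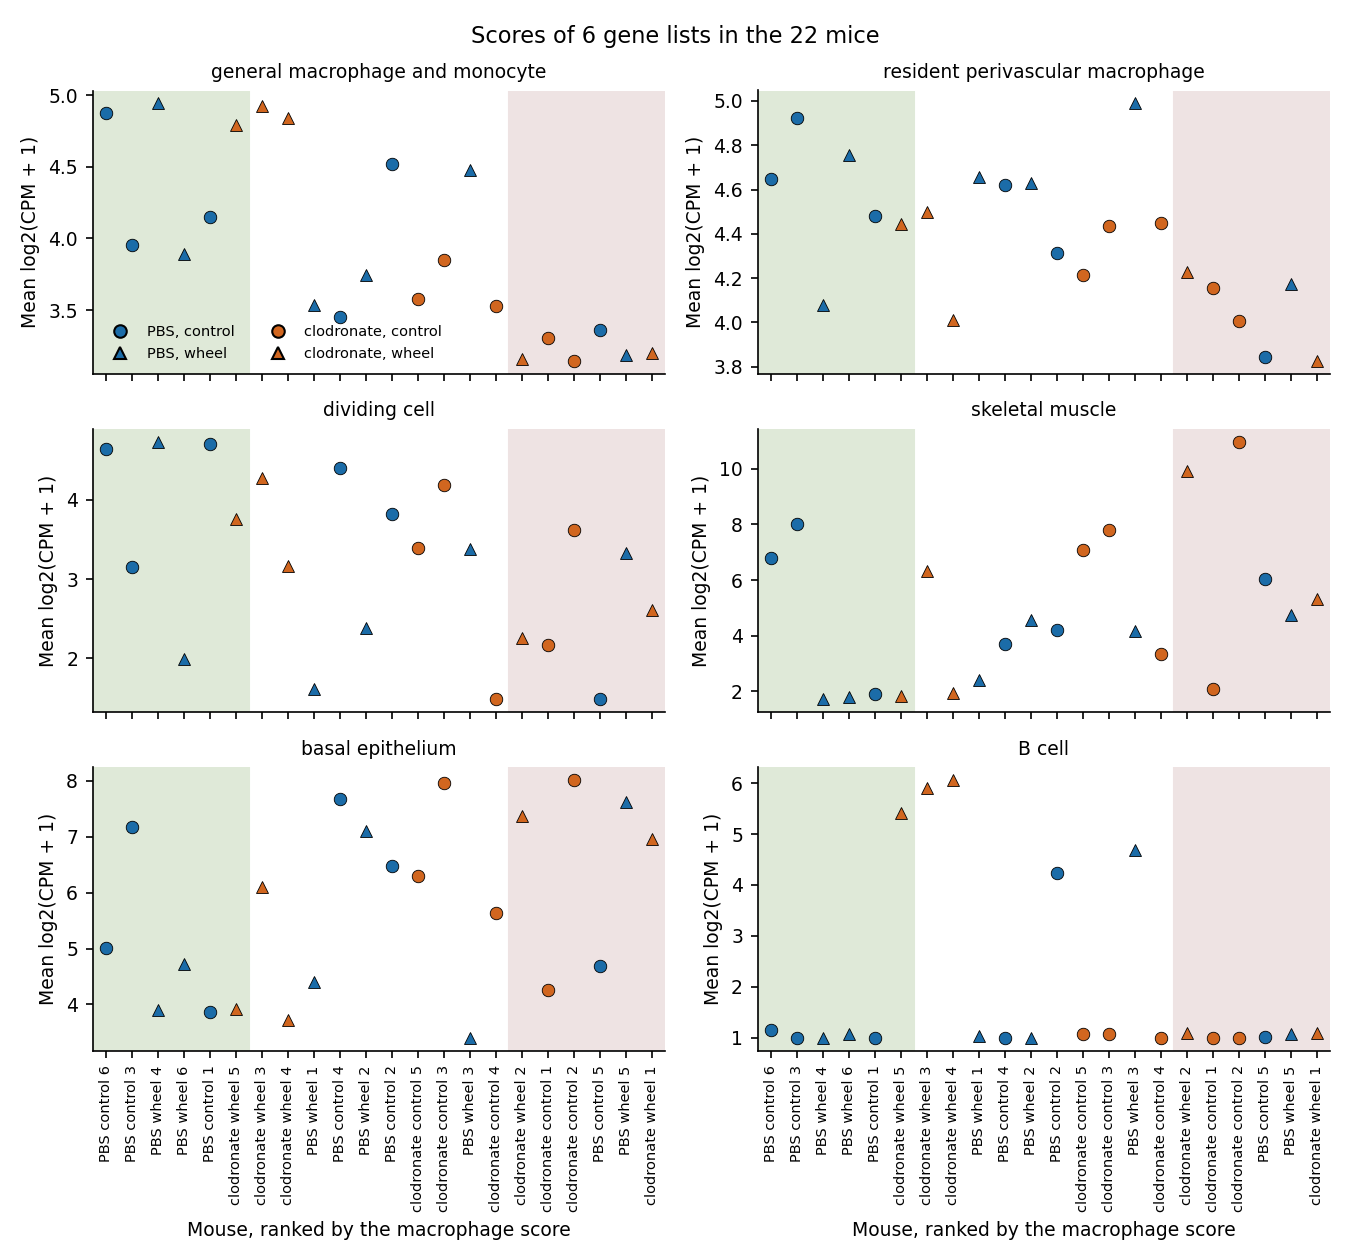
Mean log2(CPM + 1) of 6 gene lists in each of the 22 mice, ranked by the macrophage score, with colour for the liposome and shape for the activity. The general macrophage list separates the shaded end groups (3.89 to 4.94 against 3.15 to 3.36); the resident macrophage, dividing cell, muscle, basal epithelium and B cell lists overlap between them.

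The remaining lists held no called gene. Markers of B cells were at or near the floor in all 12 end mice except clodronate wheel 5, and the median differences of the B and T cell lists, 0.76 and 0.52, were 0.00 without that mouse. Cd79b, a part of the B cell receptor, was 79.7 CPM in clodronate wheel 5, 1 to 2.10 CPM in the other rich mice and at the floor in all poor mice. The neutrophil list had only 4 of 10 genes above the floor in enough mice, with summed levels from 1.18 to 1.45 in the rich and from 1 to 1.43 in the poor mice.

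Fat, the bulk of the tissue, gave a median log2 difference of 0.27 over 13 adipocyte genes, and fibroblasts and progenitors 0.36 over 13. Fabp4, the fatty acid carrier of fat cells, ran from 3572 to 7341 CPM in the rich and from 2576 to 6714 CPM in the poor mice (limma adjusted p = 0.604). Col1a2, a collagen chain, had medians of 790 and 492 CPM (log2 difference 0.56, limma adjusted p = 0.284). The medians were 0.23 for dendritic cells, 0.21 for mast cells, 0.17 for lymphatic endothelium, 0.08 for blood vessels, 0.06 for smooth muscle, 0.09 for mitochondrially encoded genes and 0.00 for red blood cells, and the last 4 turned negative after upper-quartile scaling. Brown fat and Schwann cell genes had medians of -0.27 and -0.17.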

How the data were processed

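RNA from mammary tissue of 22 mice was read with QuantSeq 3′ FWD, which reads the ends of transcripts. After mapping, the authors deposited 1 table a mouse with the signal of every gene in CPM, in which 1 is the lowest value. The submitters' processing notes name STAR 2.5.3a and GRCm38, and the counting tool is not given in the sources used here. Above the floor 100% of values were whole multiples of 1 read (tolerance 0.01 read), which gave a median depth of 16293026 reads. Reads of genes at the floor (no more than 13 to 20 per gene) are lost, which limits precision at low levels and barred tests on counts.

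Of 52526 symbols (106 had duplicate rows, of which the most abundant was kept), 15138 were above 1 CPM in at least 5 mice. The 8 ranking genes were removed, and log2(CPM + 1) of the other 15130 was compared by limma 3.58.1 under R 4.3.3, using eBayes, a variance trend and Benjamini-Hochberg adjustment. A difference on this scale understates the change of low genes. Scores were compared by exact permutation, and end groups by Fisher's exact test, in Python 3.11.15 with scipy 1.17.1. Single mice are the replicates. The members and the 28 gene lists were chosen with earlier results of these data known.

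Named genes were the 10 largest rises and falls among genes called without overlap, per list up to 3 called genes or else the 2 most abundant, and markers of cell types that moved with the groups; the rest, among them Aoah, Csf1, Il34, Ly6c2, Ccl2 and Rhox5, were chosen after their values were seen. Gene positions are from GENCODE M21. The last 400 bases of the 16 called genes matched no other gene at 97% identity over 100 bases; Lgi4 overlaps Fxyd3 on the other strand and 9230102O04Rik overlaps Gata3, at up to 9.71 and 5.07 CPM. On simulated data with 200 of 15138 genes changed by 1.5 (log2) between the end groups, limma recovered 96% with 10 false calls, and made 0 calls among 15136 unchanged genes. Whether these rates hold for the measured libraries, which differed in genes of muscle, skin and lymph node, was not tested. Alternatives were other pseudocounts (0.1 and 5), filters, scalings, rankings, group sizes and covariates, a block for the replicate number, and fits without each mouse. Covariates for dividing cells, and upper-quartile scaling before the ranking, were added after seeing the data.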

Additional observations from a re-analysis of the deposited data

Results flagged for a closer look

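In 60 sets of 6 mice (30 list scores in each end group), 6 scores stood far from the other 5 of their group, where chance gives about 1 in 20 groups, or 3. One of these is the macrophage score itself, 5.00 in PBS control 6 and 4.57 in the next rich mouse; since this score chose the group, the chance rate does not apply to it. Clodronate wheel 5, the rich mouse with lymph node genes, stood apart in 4 lists: B cell (5.41, next 1.16), T cell (4.72, next 1.51), MHC class II presentation (6.63, next 4.40) and dendritic cell (2.45, next 1.71). The basal epithelium score of PBS control 3 was 7.18, and the next rich mouse was at 5.00.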

How the results depend on the processing

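The count of 16 genes between the end groups became 1 with a pseudocount of 5, 0 without a filter on low values, 7 with upper-quartile scaling (also when scaled before the ranking), 2 without the variance trend, 0 without the mouse with lymph node tissue, 0 with the lymphocyte or dividing cell lists, 2 with the muscle list and 28 with the adipocyte list as covariates, 0 with 5 against 5, 70 with 7 against 7 and 0 with 11 against 11 mice, 0 with liposome and activity as covariates and 0 in PBS mice alone (4 against 4). Without 1 mouse it was 0 to 42. The 16 genes kept their direction in each of these fits in which they were tested; of the other named genes, 113 results turned direction under the alternatives and 40 without 1 mouse. The cause was not tested.

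The 22 genes called for the slope within groups became 10 without a filter, 3 with upper-quartile scaling, 5 with scaling to reads in genes, 10 without the variance trend, 0 without the mice with lymph node tissue, and 12, 3 and 147 with the lymphocyte, muscle and adipocyte lists as covariates. Without 1 mouse it was 3 to 78, with 78 without PBS wheel 3 and 47 without PBS control 2. The slope difference between liposomes gave 0 to 6 genes (6 without clodronate wheel 1), and the middle mice 0 to 0.

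The score difference by liposome was 0.33 to 0.65 without 1 mouse in control mice and -0.05 to 0.29 in wheel mice, where it was reversed (-0.054) without clodronate wheel 1. By activity it was -0.34 to -0.01 with PBS and 0.06 to 0.37 with clodronate.

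The labels do not say whether same-numbered mice share more than the number. Of 31 such pairs, 12 had a correlation over 0.1. Their mean was 0.05, with a range from -0.39 to 0.52, beside a mean of -0.009 for mice of other numbers. Only 2 mice correlated best with their own number. With the replicate number as a block, 0 genes were called between the end groups and 0 for the slope. At an unadjusted p of 0.05 in limma, 1271 genes differed between the end groups with the block and 2351 without it. Levels under 1 CPM could not be compared, since the deposited values stop there.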
